A study of Homo sapiens with 6 samples.

Results

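The genes described here encode the enzymes and membrane proteins of the lysosome and the subunits of its proton pump, in HCT116 cells depleted of STBD1. They are the protein-coding genes whose symbol starts with ATP6V, 24 in number, and 35 further genes listed by symbol, which makes 59 of the 58395 genes in the deposited files. The rule uses names and not measured values. By role it holds 15 genes with the ATP6V1 prefix, 9 with the ATP6V0 prefix, 8 membrane proteins, 9 proteases, 7 glycosidases, 7 enzymes and carriers of lipids and other lumenal proteins, and 4 transcription factors of the MiT family.

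HCT116 is an established human colorectal carcinoma line. STBD1 is a glycogen-binding protein thought to hand glycogen to the autophagosome, and the study asked how gene expression differs when it is depleted. Of the 6 RNA-seq libraries, 3 came from cells that carry a lentiviral non-target hairpin (shControl) and 3 from cells that carry a lentiviral hairpin against STBD1 (shSTBD1). Infected cells were kept in a selection medium with puromycin or G418, and which of these was used for each group is not stated. The replicates are described as biological. The methods list a single hairpin sequence against STBD1. In these 6 libraries an effect of that sequence on other transcripts therefore cannot be told apart from an effect of STBD1. The study also put hairpin-resistant normal and W203C mutant STBD1 back into shSTBD1 HCT116 cells, with RNA-seq outside these libraries. It made STBD1 knockout clones of another cell line, A549, as well. How far the replicates share a culture is not given, so the p-values measure the spread between these libraries.

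The lysosome is the acidic compartment in which material delivered by endocytosis and autophagy is broken down. The vacuolar ATPase (V-ATPase) pumps protons into it: a V1 sector on the cytosolic side hydrolyses ATP and turns a ring of the V0 sector in the membrane. Heavily glycosylated proteins such as LAMP1 and LAMP2 line the membrane, acid hydrolases fill the lumen, and TFEB, TFE3, MITF and TFEC are factors that bind an E-box element found near the start of many lysosomal genes.

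The libraries held between 17689097 and 21668274 expected counts. CPM, counts per 1000000 counts of the library, compares a gene between libraries, and TPM, which is also divided by transcript length, compares genes with each other. STBD1 (chr4:76306733-76311130, plus strand) stood at 16.2, 15.7 and 14.4 CPM in shControl and at 11.6, 9.06 and 9.18 CPM in shSTBD1, so that the groups did not overlap. Its log2 fold change was -0.64 (SE 0.098, adjusted p = 0.000291, edgeR quasi-likelihood test with Benjamini-Hochberg adjustment), a reduction of the transcript and not a loss of it. RSEM gave the STBD1 counts a posterior SD of 8.37% of the count, above the 5% used here to mark read sharing. The library shControl 1 stood further from the others of its group than any other library: the chi-square per degree of freedom over 13396 genes was 6.87 and 5.37 between it and shControl 2 and 3, against 1.59 to 2.02 for the other pairs. Of the epithelial markers, 7 of 8 were tested and 4 rose at an adjusted p under 0.05 (KRT8, KRT18, KRT19, CDH1), beside 8.22% of all tested genes. The other tested markers did not pass: EPCAM at a log2 fold change of 0.04, KRT20 at 0.66 and CDX2 at -0.07. The summed level of the 8 epithelial markers was 2859 to 2894 TPM in shControl and 3243 to 3380 TPM in shSTBD1. Its part in the results below was not tested. Macrophage markers summed to 1.99 to 3.77 TPM and 0.96 to 2.71 TPM in the same order, with PTPRC and TYROBP at 0 in every library, and fibroblast markers to 15.2 to 20.2 TPM and 17.3 to 20.8 TPM, with LUM and FAP at 0.

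The E-box of the MiT factors is best known in the form TCACGTGA, and its shorter forms are TCACGTG and CACGTG, each of which lies inside the longer one. These letters were searched on both strands in RefSeq windows (GRCh38.p14) from 250 bases before to 50 bases after a gene's start, of which 66 belonged to 44 of the 59 genes. TCACGTG was found in 16.7% of the windows of these genes and in 3.71% of all 35116 windows. TCACGTGA was found in 7.58% and 0.98%, and CACGTG in 18.2% and 7.26%. The 10 genes with TCACGTG were ATP6V0B, ATP6V0D1, ATP6V0E2, ATP6V1G1, CLCN7, CTSA, CTSD, LAMP1, MCOLN1 and NEU1. The genes with no entry in the table of windows were ASAH1, ATP6V0D2, ATP6V0E1, ATP6V1A, ATP6V1B2, ATP6V1C1, ATP6V1E2, ATP6V1FNB, ATP6V1H, CTSB, HEXA, LAMP2, LGMN, MANBA and PSAP.

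Stretches before the start of 5 of the 10 genes are shown, since they include the only one of the 10 that was called (CTSD) and the gene with the most matches (LAMP1). Each is written 5′ to 3′ on the strand of the gene, with the matching letters in capitals. The match of CTSD is the reverse complement of TCACGTG and begins 47 bases before the RefSeq start, and its 27 bases overlap exons of 3 annotated transcripts.
CTSD, chr11:1763958-1763984, minus strand: cggccgcgccCACGTGAccggtccggg
LAMP1, chr13:113297026-113297122, plus strand, with 4 matches from 193 to 143 bases before the start: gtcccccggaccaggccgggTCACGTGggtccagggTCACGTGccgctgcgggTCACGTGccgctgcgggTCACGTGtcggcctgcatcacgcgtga
LAMP1, chr13:113297190-113297237, plus strand, 29 bases before the start: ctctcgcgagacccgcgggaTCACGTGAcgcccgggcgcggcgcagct
MCOLN1, chr19:7522562-7522623, plus strand, 42 and 15 bases before the start: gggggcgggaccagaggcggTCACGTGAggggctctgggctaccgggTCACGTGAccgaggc
NEU1, chr6:31862922-31862968, minus strand, 127 bases before the start: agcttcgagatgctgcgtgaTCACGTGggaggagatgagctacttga
ATP6V0D1, chr16:67481190-67481237, minus strand, 60 bases before the start: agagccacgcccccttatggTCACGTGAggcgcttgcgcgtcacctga
A match is a run of letters and not a shown binding site. Of the 10 genes with TCACGTG, 1 was called (CTSD, lower), beside 15.8% of all tested genes. A single call is too few to tell a share above that of all genes from a share below it. Their log2 fold changes were positive for 3 and negative for 7, with a median of -0.03. Of the 31 tested genes with a window that lacks these letters, 14 were positive and 17 negative, 1 was called and the median was -0.01, while the median over all tested genes was 0.0023. A gene with several windows can count in both sets. The called genes CTSB, ATP6V1C1 and LAMP2 have no window and count in neither.

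Most of the 59 genes were well expressed. Their mean level over the 6 libraries was above 10 TPM for 47 genes and above 100 TPM for 8, and together they held 0.294% of all TPM. CD63, a tetraspanin of late endosomes, and PSAP, the precursor of the saposins that present sphingolipids to their hydrolases, led with 295 and 294 TPM. ATP6V1F, subunit F of the pump's central shaft, followed at 165 TPM, then the cysteine protease CTSB at 156 TPM and ATP6V0C, the proteolipid of the membrane ring, at 127 TPM. When the genes are ordered by mean level, 53 of 58 neighbouring pairs had overlapping values over the 6 libraries, so that most places in the order are not distinct. The gaps that did not overlap near the top were those between PSAP and ATP6V1F and between CTSB and ATP6V0C. At the low end 6 genes were under 1 TPM, and ATP6V1G3 had no count in any library.

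**Figure D1:**
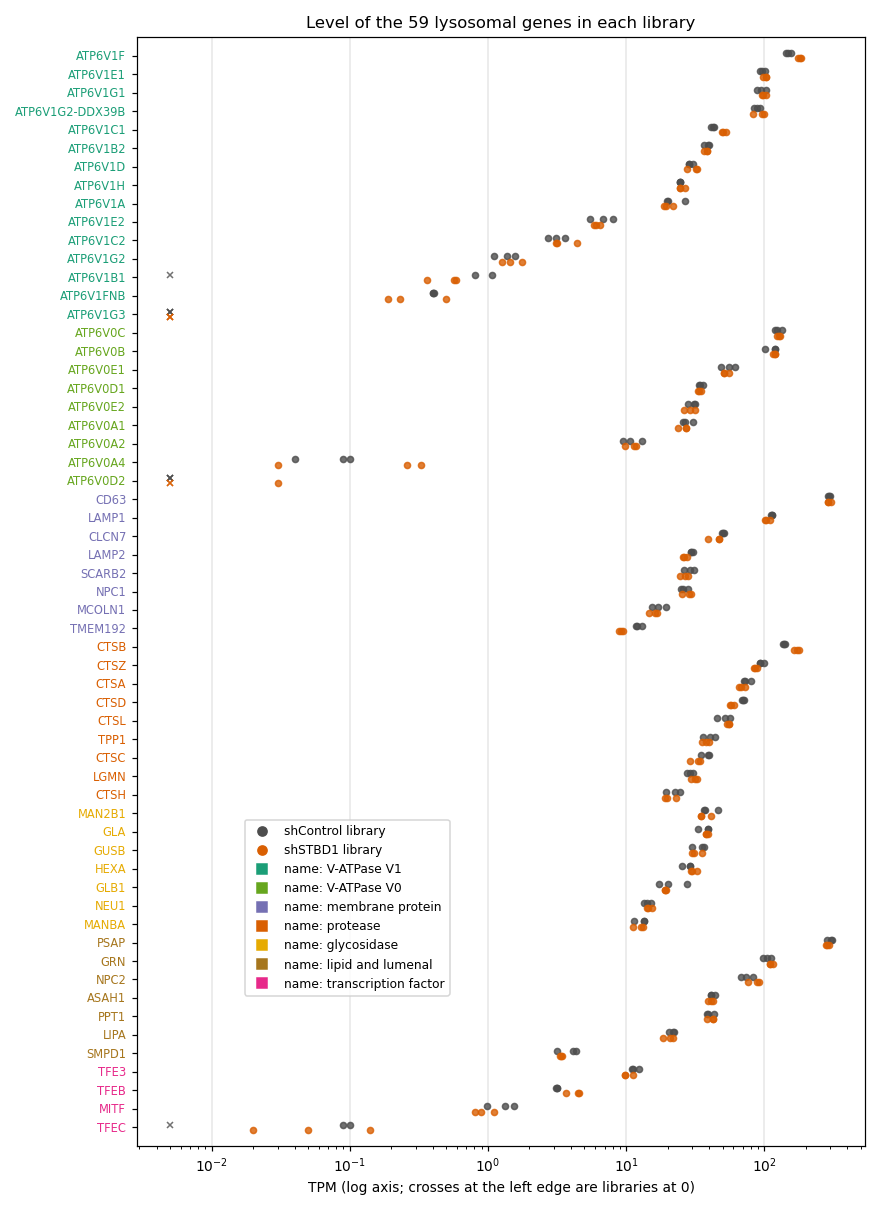
TPM of the 59 lysosomal genes (log axis) in each library, grouped by role and ordered by mean within a role, with shControl in grey and shSTBD1 in orange and libraries at 0 drawn as crosses. CD63 and PSAP lie near 300 TPM, the glycosidases between 10 and 50 TPM, and in most rows the points of both groups overlap.

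Few of the genes were called between shControl and shSTBD1, and those that were differed by 11.6% to 25.3%. Of the 54 genes with enough counts to be tested, 3 were higher in shSTBD1 (CTSB, ATP6V1F and ATP6V1C1) and 2 were lower (CTSD and LAMP2) at an adjusted p under 0.05 by edgeR. That is 9.26% of the tested genes, while 15.8% of all 15566 tested genes were called (8.22% higher and 7.54% lower). The difference between these shares was not tested. At an unadjusted edgeR p under 0.05, 16 of the 54 passed, beside 30.0% of all tested genes. Unadjusted edgeR p was under 1e-05 for 3 of the 54 genes and for 371 of all 15566 (2.38%). The study's methods name that p threshold for DESeq2 and together with a cut on the TPM fold change, so the counts are not like for like. The genes not tested for lack of counts were ATP6V0A4, ATP6V0D2, ATP6V1B1, ATP6V1G3 and TFEC.

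The signs of the differences were balanced, with 25 positive and 29 negative, and the median log2 fold change was -0.011 beside 0.0023 for all tested genes. The CPM of the groups did not overlap for 19 of the 54 genes, 11 of them higher and 8 lower, which is 35.2% against a background of 33.6%. The median size of the change without its sign was 0.078, and 0.110 over all genes. The lysosomal genes also had more counts, with a median of 892 per library for the 59 genes and 444 for all tested genes. Their median SE was 0.049, against 0.068 for all tested genes. How far this lowers the size of the change was not tested. For 42 of the 54 genes the 95% confidence interval of the log2 fold change lay within 0.3 of 0, and for 33 within 0.2. Each library is a lysate of many HCT116 cells, so a change in every cell and a change in some cells cannot be told apart. Without shControl 1 the same 5 genes were called and no other of the 54.

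**Figure D2:**
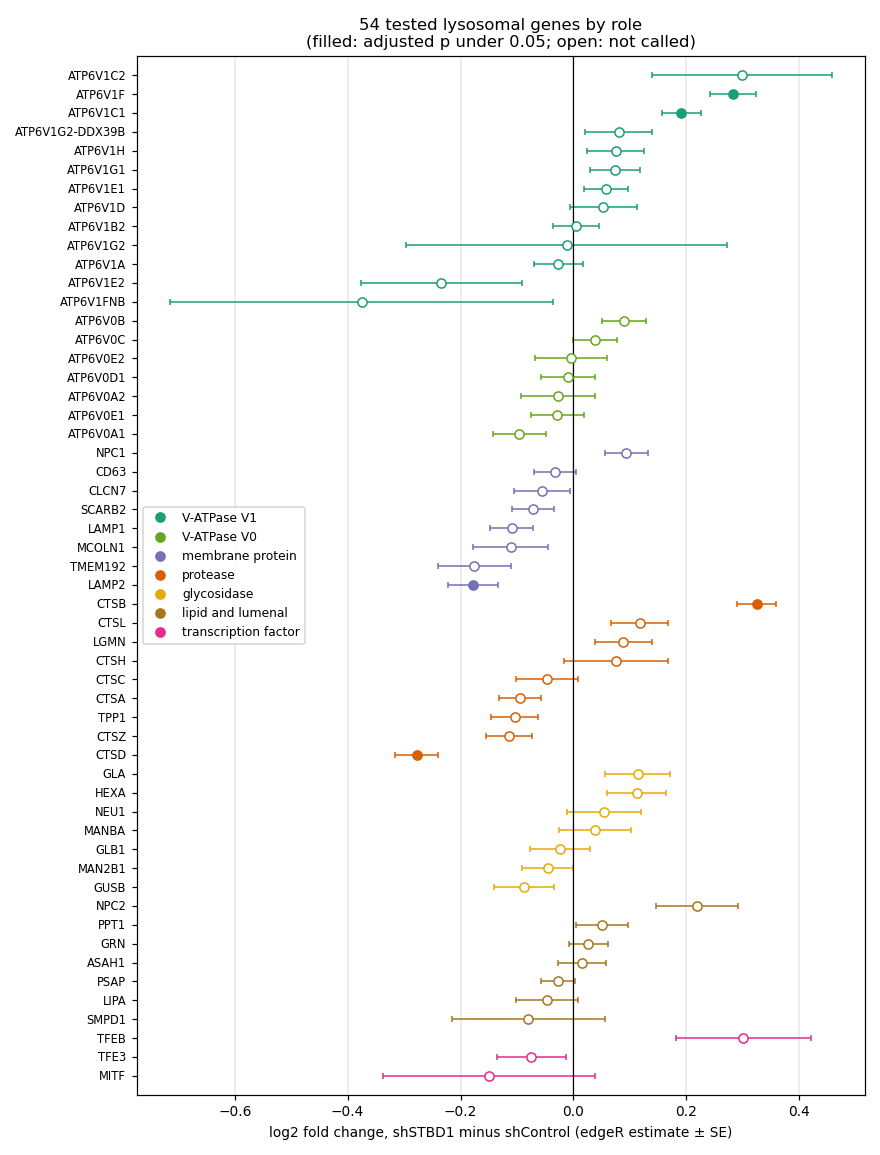
Log2 fold change of shSTBD1 over shControl (horizontal axis, points with SE from the edgeR fit) for the 54 tested genes, grouped and coloured by role, with filled points for the 5 called genes and open points for the rest. CTSB at 0.32 and CTSD at -0.28 stand at the opposite ends of the proteases, and 7 of the 8 membrane proteins lie left of 0.

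The V1 sector is the part of the pump that hydrolyses ATP, and both called genes with the ATP6V prefix belong to it. ATP6V1F (chr7:128862856-128865847, plus strand) had 55.5, 57.1 and 55.3 CPM in shControl and 68.0, 69.8 and 66.6 CPM in shSTBD1. All 3 shSTBD1 libraries were above every shControl library. The log2 fold change was 0.28 (SE 0.041, edgeR adjusted p = 0.000165), or 21.7% more. ATP6V1C1 (chr8:103021063-103073051, plus strand) encodes subunit C, which clamps the peripheral stalks to the V0 sector and lets go of it when the pump comes apart. It rose from 110.3, 110.9 and 108.5 CPM to 127.7, 126.6 and 122.2 CPM, again without overlap. Its log2 fold change was 0.19 (SE 0.034, edgeR adjusted p = 0.00102), or 14.2% more. Per length, the level of ATP6V1C1 was 42.4 ± 1.03 TPM in shControl and 51.0 ± 1.69 TPM in shSTBD1 (SD, n = 3).

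The other V1 genes did not pass the test. ATP6V1A and ATP6V1B2, the main forms of the catalytic and the nucleotide-binding subunits, had log2 fold changes of -0.03 and 0.0044 with intervals from -0.12 to 0.07 and from -0.08 to 0.09. The stalk subunit genes ATP6V1E1 and ATP6V1G1 and the subunit genes ATP6V1D and ATP6V1H had positive values between 0.05 and 0.07. Leaving out ATP6V1FNB, a gene beside ATP6V1F, and ATP6V1G2-DDX39B, a read-through of its neighbour, neither of which is a separate subunit, 2 of 11 tested V1 genes were called (18.2%, near the 15.8% of all genes), 8 values were positive and the median was 0.06. The summed level of the 13 V1 subunit genes was 501 to 529 TPM in the shControl libraries and 545 to 573 TPM in the shSTBD1 libraries, and these ranges did not overlap. Without ATP6V1F and ATP6V1C1 the other 11 genes summed to 313 to 330 TPM and 320 to 337 TPM, which overlapped. The counts of ATP6V1G2-DDX39B and ATP6V1C2 depend on how reads shared with DDX39B and PDIA6 were assigned, and those of ATP6V1D and ATP6V1E2 on whether strand was used, since PALS1 and RHOQ lie over them on the opposite strand.

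The V0 sector carries the protons across the membrane, and none of the 7 tested genes with the ATP6V0 prefix was called by edgeR. The prefix leaves out TCIRG1, a form of subunit a, and the pump partners ATP6AP1 and RNASEK, all given below. TCIRG1 was not called, ATP6AP1 was called lower and RNASEK higher. ATP6V0C had 96.6, 104.0 and 96.1 CPM in shControl and 103.0, 99.0 and 103.0 CPM in shSTBD1, so that the groups overlapped (log2 fold change 0.04, SE 0.039). The sign of ATP6V0C turned when gene length entered the scaling, with -0.01. ATP6V0B, a second proteolipid of the ring, was the only gene of the 7 with an unadjusted p under 0.05 (log2 fold change 0.09, edgeR adjusted p = 0.133). The 7 values ran from -0.10 to 0.09, and all 7 intervals lay within 0.2 of 0. The 9 genes with the ATP6V0 prefix summed to 373 to 425 TPM in shControl and 399 to 400 TPM in shSTBD1.

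Several subunits are encoded by more than 1 gene, and the forms are known to differ between tissues and membranes. By share of TPM, subunit B came almost wholly from ATP6V1B2 (97.2% to 100% over the 6 libraries), subunit C mainly from ATP6V1C1 (92.0% to 94.2%), subunit E from ATP6V1E1 (92.0% to 94.6%), subunit G from ATP6V1G1 (98.2% to 98.9%) and subunit d from ATP6V0D1 (99.9% to 100%). ATP6V0E1 made up 61.4% to 68.5% of subunit e, with ATP6V0E2 for the rest. For subunit a, which sets the membrane to which the pump goes, the forms of this list were ATP6V0A1 (23.7% to 34.8%) and ATP6V0A2 (10.1% to 13.9%), while TCIRG1, the a3 form, whose symbol falls outside the rule, held 51.1% to 66.1%. The forms ATP6V1B1, ATP6V1G3, ATP6V0A4 and ATP6V0D2 were at 1.07 TPM or less in every library. The mean shares of the leading forms differed between shControl and shSTBD1 by 2.75 percentage points or less, and no share had a two-sided exact permutation p below 0.3, where 0.1 is the smallest that 3 against 3 libraries can give.

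Of the 8 membrane protein genes 1, LAMP2, was called, which is 12.5% beside 15.8% of all genes. The log2 fold changes were negative for 7 of the 8, with a median of -0.09, and one of these, CD63, changed sign with the processing. LAMP2 (chrX:120426148-120469365, minus strand) encodes a heavily glycosylated membrane protein of which one form takes part in chaperone-mediated autophagy. It had 70.1, 66.8 and 68.7 CPM in shControl and 60.3, 63.7 and 57.5 CPM in shSTBD1, and the groups did not overlap. The log2 fold change was -0.18 (SE 0.045, edgeR adjusted p = 0.0128), or 11.6% less. Without shSTBD1 3 it was -0.14 and no longer called (adjusted p = 0.0841), and with TPM on a log scale in limma, a linear model test, it was -0.17 (adjusted p = 0.161).

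LAMP1 (chr13:113297239-113323672, plus strand), the other major protein of the lysosomal membrane and the gene with the most TCACGTG matches above, had 252.7, 234.7 and 247.1 CPM in shControl and 237.3, 225.9 and 217.8 CPM in shSTBD1. The groups overlapped through shSTBD1 1 and shControl 2. Its log2 fold change was -0.11 (SE 0.038) with an edgeR adjusted p of 0.0601, just outside the threshold, and its interval ran from -0.19 to -0.03. TMEM192, a lysosomal membrane protein of unclear function, was at -0.18 (adjusted p = 0.0763, edgeR) with groups that did not overlap, and KLHL2 lies over it on the opposite strand. TMEM192 was called with effective lengths, at -0.40 (adjusted p = 0.0235, edgeR), and without shControl 2, at -0.24, and in no other of the 21 alternative settings. CD63, the most abundant of the 59 genes, was at -0.03 (SE 0.037), and its sign turned without shControl 1 (0.0053) or with effective-length scaling (0.0095). NPC1, the membrane protein that exports cholesterol from the lysosome, was the only positive one at 0.09 (edgeR adjusted p = 0.110), and RMC1 lies over it on the opposite strand. CLCN7, SCARB2 and MCOLN1, a chloride-proton exchanger, a carrier of glucocerebrosidase and a calcium channel, were between -0.11 and -0.06 and were not called, and MCOLN1 shares its span with PNPLA6.

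**Figure D3:**
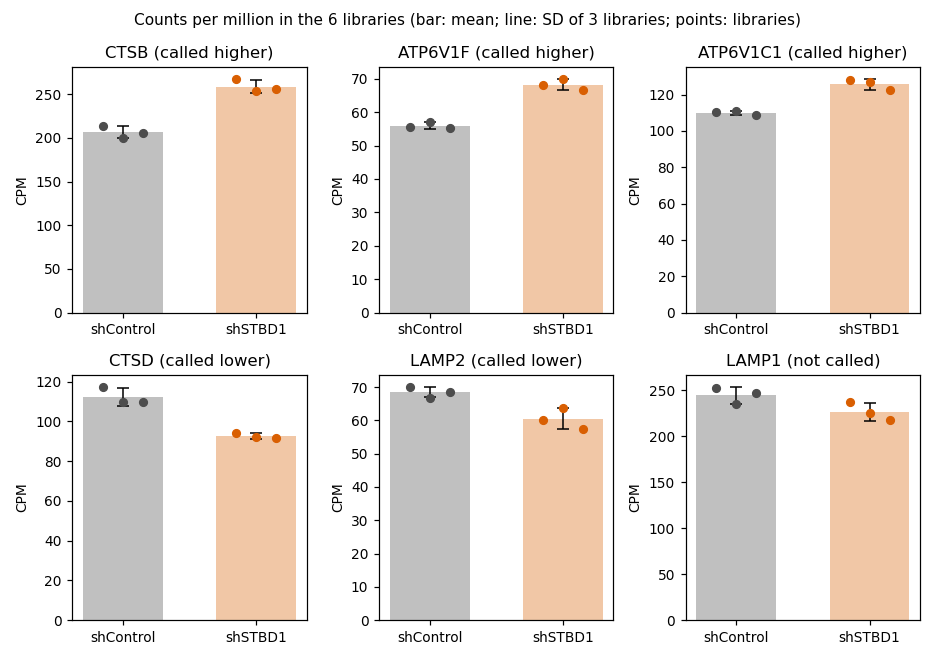
CPM of the 5 called genes and of LAMP1 (vertical axes from 0), with bars for the mean of 3 libraries, lines for the SD and points for single libraries, shControl in grey and shSTBD1 in orange. The points of the groups are apart in the 5 called genes, with CTSB near 206 against 259 CPM and CTSD near 112 against 92.7 CPM, and they overlap for LAMP1.

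The proteases held the largest of the called changes in each direction. CTSB (chr8:11842524-11869533, minus strand), a cysteine protease that cuts both inside peptides and from their end, had 213.4, 200.2 and 205.7 CPM in shControl and 267.1, 253.4 and 255.3 CPM in shSTBD1. Every shSTBD1 library was above every shControl library. The log2 fold change of CTSB was 0.32 (SE 0.034, edgeR adjusted p = 6.72e-06), or 25.3% more, the largest rise among the tested genes of the list. CTSD (chr11:1752752-1764573, minus strand), the main aspartic protease of the lysosome, went from 117.5, 109.8 and 109.6 CPM to 94.1, 92.4 and 91.5 CPM. All 3 shSTBD1 libraries were below the shControl libraries. Its log2 fold change was -0.28 (SE 0.037, edgeR adjusted p = 8.86e-05), or 17.5% less.

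Since both genes are measured in the same libraries, their levels per length were also set against each other, a ratio that was chosen after the values were seen. The TPM of CTSB was 1.97, 1.96 and 2.02 times that of CTSD in shControl and 2.99, 2.90 and 3.05 times in shSTBD1. The mean rose from 1.99 ± 0.034 to 2.98 ± 0.078 (SD, n = 3). The pair is the largest called rise and the largest called fall of the list, so that the ratio had to separate the groups, and it is given as a description with no test.

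The other 7 proteases were not called, with log2 fold changes from -0.11 to 0.12. The CPM of the groups did not overlap for 4 of these 7. Over all 9 proteases this share was 66.7%, beside 33.6% of all tested genes, and the difference was not tested. CTSZ and CTSA, carboxypeptidases, and TPP1, which removes tripeptides, were lower in every shSTBD1 library at -0.11, -0.10 and -0.10, with edgeR adjusted p of 0.0643, 0.0937 and 0.106. The CTSZ gene overlaps NELFCD on the opposite strand. CTSL, a cysteine endopeptidase, was higher in every shSTBD1 library at 0.12 (edgeR adjusted p = 0.124). CTSC and LGMN, which activate other proteases by cutting them, and CTSH were at -0.05, 0.09 and 0.08 with overlapping groups. Without shControl 2, CTSZ and CTSL also passed, which made 4 proteases, and with LAMP1 and TMEM192 the count rose to 9 of the lysosomal genes.

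None of the 7 glycosidases was called, and their log2 fold changes ran from -0.09 to 0.11 with a median of 0.04. MAN2B1, the alpha-mannosidase of glycoprotein breakdown and the most abundant of them per length, had 36.8, 37.3 and 46.0 TPM in shControl and 34.7, 41.0 and 35.1 TPM in shSTBD1. The groups overlapped, and the log2 fold change was -0.05 (SE 0.045, edgeR adjusted p = 0.552). HEXA, the alpha subunit of beta-hexosaminidase, was the only one with an unadjusted p under 0.05 (log2 fold change 0.11, edgeR adjusted p = 0.157). GLA, alpha-galactosidase A, was also at 0.11 with groups that did not overlap, and RPL36A lies over it on the opposite strand. All 7 intervals lay within 0.3 of 0.

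None of the 7 genes for lipid enzymes, carriers and other lumenal proteins was called either. PSAP, the second most abundant of the 59 genes, had 550.8, 554.7 and 558.7 CPM in shControl and 550.2, 551.0 and 531.0 CPM in shSTBD1. Its log2 fold change was -0.03 (SE 0.030), and the interval from -0.09 to 0.04 was the narrowest of the list. GRN, progranulin, was at 0.03. NPC2, the soluble partner of NPC1 that binds cholesterol in the lumen, had 31.9, 38.3 and 40.1 CPM in shControl and 39.9, 42.4 and 45.9 CPM in shSTBD1. The groups overlapped by shSTBD1 1 and shControl 3, and the log2 fold change was 0.22 (SE 0.073, edgeR adjusted p = 0.0517). It passed the threshold in 6 of 21 alternative settings, and ISCA2 lies over it on the opposite strand. ASAH1, PPT1, LIPA and SMPD1, which act on ceramide, lipid-modified proteins, cholesteryl esters and sphingomyelin, were between -0.08 and 0.05.

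Of the MiT factors, TFEB, MITF and TFEC were expressed at low levels, and none of the 3 tested genes of the family was called. TFEB had 5.56, 5.41 and 5.25 CPM in shControl and 7.05, 6.71 and 6.25 CPM in shSTBD1, without overlap. Its log2 fold change of 0.30 (SE 0.119) was the second highest of all 54 values, yet the edgeR adjusted p was 0.0977 at a mean of 119 counts per library. TFE3, the most abundant of the family at 10.9 TPM, had 23.7, 23.2 and 25.6 CPM in shControl and 22.8, 22.9 and 22.9 CPM in shSTBD1. Its groups did not overlap either, and it was lower in shSTBD1 (log2 fold change -0.07, edgeR adjusted p = 0.452). MITF was at 1.29 ± 0.278 TPM in shControl and 0.937 ± 0.155 TPM in shSTBD1 (log2 fold change -0.15, edgeR adjusted p = 0.646), and TFEC had a mean of 3.5 counts per library. RNA level says nothing of the place of these proteins in the cell, on which their activity is known to depend.

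Other genes of the same pathway were taken from lists made by role, with earlier results of these data known. The shares of called genes in these lists are therefore descriptions only. Among 12 partners of the pump (assembly factors, accessory subunits and regulators), 5 were called by edgeR. DMXL2, a subunit of the complex that rejoins V1 and V0, rose by 0.22 on the log2 scale (SE 0.042, adjusted p = 0.00152), and RNASEK, a protein bound to the pump, by 0.23 (SE 0.058, adjusted p = 0.0115). WDR7, the partner of DMXL2 in that complex, fell by 0.21 (SE 0.064, adjusted p = 0.0316), ATP6AP1, an accessory subunit, by 0.16 (SE 0.041, adjusted p = 0.0139) and VMA21, an assembly factor, by 0.12 (SE 0.038, adjusted p = 0.0462). The share was 41.7%, beside 15.8% of all genes, and was not tested. Of the partners, 3 were called without shControl 1, 2 without shControl 3 or shSTBD1 3, 1 without shSTBD1 2 and none with TPM in limma. The sign of DMXL2 turned with effective lengths (-0.03) and with TPM in limma (-0.03), and WDR7 was at -0.00036 (adjusted p = 0.999) with effective lengths. The call of WDR7 held in 11 of 21 settings and that of VMA21 in 7. RNASEK was at 0.15 without shControl 1 and still called. TCIRG1 was at 0.09 (SE 0.060) and was not called.

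Of 89 other lysosomal genes 83 were tested, and 9 rose and 12 fell, which is 25.3% of those tested, beside 15.8% of all genes (8.22% higher and 7.54% lower), and this share was not tested. Their median log2 fold change was -0.02. GAA, the acid alpha-glucosidase that degrades glycogen in the lysosome, had 139.6, 136.7 and 146.9 CPM in shControl and 135.3, 140.9 and 131.4 CPM in shSTBD1. The groups overlapped, and its log2 fold change was -0.05 (SE 0.037, edgeR adjusted p = 0.375). Those that fell included IGF2R, the mannose 6-phosphate receptor that brings hydrolases to the lysosome (-0.34, SE 0.045), CD164, a sialomucin (-0.20, SE 0.031), and ARSG, a sulfatase (-0.55, SE 0.098). The edgeR adjusted p of these 3 ran from 6.19e-05 to 0.00107. IGF2R stood at 178.8, 155.9 and 178.4 CPM in shControl and at 134.1, 135.6 and 134.1 CPM in shSTBD1. With effective lengths its log2 fold change was -0.21 (adjusted p = 0.244, edgeR), and its call was lost in that setting and in the 3 limma fits.

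Among those that rose, the genes with the smallest p were RRAGC, a GTPase of the nutrient-sensing complex on the lysosome (0.40, SE 0.068), LAMTOR4, a scaffold subunit of the same complex (0.24, SE 0.048), CD68, a lysosomal membrane glycoprotein (0.47, SE 0.095), and NAAA, an amidase of fatty acid ethanolamides (0.33, SE 0.080). Their edgeR adjusted p ran from 0.000876 to 0.0103. The count of CD68 rests in part on shared reads, with a posterior SD of 5.26% of the count. NAAA was at 0.63 with effective lengths, and LAMTOR4 at 0.14 and no longer called with gene lengths. By role, 3 of 9 genes for delivery fell and none rose (IGF2R, SORT1 and GNPTAB), and of 12 genes for nutrient sensing 3 rose (RRAGC, LAMTOR4 and LAMTOR5) and 1 fell (RRAGD). Among all genes 7.54% fell and 8.22% rose, and the difference from these shares was not tested. The count of 21 called genes was 17 without shControl 1, 12 without shControl 3, 9 without shSTBD1 2 and 10 without shSTBD1 3.

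The calls of CTSB, CTSD, ATP6V1F and ATP6V1C1 held in 20 of 21 alternative settings and that of LAMP2 in 16. For the first 4 genes the exception was limma on TPM with a term for the replicate number, which called 11 genes of the whole table.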

How the data were processed

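The libraries were grouped by the labelled hairpin. The members and lists were chosen with earlier results of these data known. The authors removed adapter and low-quality reads and used STAR 2.7.1a for alignment to Hg38 and RSEM 1.3.1 for quantification, with gene models of Ensembl release 93. Whether reads were counted by strand is not given in the sources used here. The deposited expected count of each gene is not normalized and is fractional for 19.9% to 20.4% of genes above 0. The deposited TPM is the authors' value per effective length, with equal sums over the libraries. The deposited posterior standard deviation of each count, treated as a score, was used to mark read sharing above 5% of the count.

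Expected counts were rounded, filtered with filterByExpr and scaled by TMM (factors 0.979 to 1.009), and the groups were compared by the edgeR 4.0.16 quasi-likelihood F-test (R 4.3.3) with Benjamini-Hochberg adjustment over all 15566 genes and called at 0.05. Each SE is the log2 fold change divided by the square root of F. CPM use TMM-scaled library sizes. The common biological coefficient of variation was 3.37%. Symbols were matched for 57754 of 58395 genes and positions taken from GENCODE 44 on GRCh38. Intervals cover the spread of the libraries, and depth limits genes such as TFEB, MITF and TFEC. In data simulated on the same design for 15566 genes, 200 drawn at random from all of them were changed. That is a smaller share than the 15.8% called in the data, so the rates below need not hold for the lysosomal genes. There edgeR recovered 74% of 100 genes at a log2 change of 0.5 and 83% of 100 at 1. Of its 169 calls, 7.1% were false. The log2 fold changes of the tested lysosomal genes ran from -0.38 to 0.32, and recovery of changes of that size was not simulated.

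Genes are named by rule: every called member, the MiT factors, the most abundant member of each role, GAA, STBD1 and up to 4 higher and 4 lower called genes of smallest p in each further list. A gene that this rule names is not reported here. ATP6V0B, LAMP1, NPC1, TMEM192, CTSZ, CTSA, CTSL, TPP1, HEXA and NPC2 were given with their statistics after their values were seen, and other members by their values. Alternatives were DESeq2 1.42.0, other scalings and filters, offsets for length or GC content, a replicate block, limma 3.58.1 on log2(TPM + 1) and log2(TPM + 0.1), and leaving out each library.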

Additional observations from a re-analysis of the deposited data

How the results depend on the processing

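With 3 libraries a group, the SE of the tested lysosomal genes ran from 0.030 to 0.339 with a median of 0.049, and low genes such as MITF have wide intervals.

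The lysosomal genes called (5) were 8 with the replicate block and GC offsets, 0 with limma on TPM and the replicate block, and 4 to 9 with a library left out. All genes called (2453) were 511 with offsets for effective length, 292 and 290 in limma on log2(TPM + 1) and log2(TPM + 0.1), 11 with limma and the block, 1690 with DESeq2, and 1409 to 2577 with a library left out. The pump genes called (2) were 0 with limma and the block. The membrane protein genes called (1) were 2 without a filter, with at least 10 counts in every library, with the replicate block and with the block and GC offsets, 0 in the 3 limma fits, and 0 to 3 with a library left out. The protease genes called (2) were 4 with gene-length offsets, 0 with limma and the block, and 2 to 4 with a library left out. The lipid and lumenal genes called (0) were 1 without a filter, with at least 10 counts, with GC offsets, with the block and with the block and GC offsets, and 0 to 1 with a library left out. The pump partners called (5) were 3 with DESeq2, 0 with effective lengths, 2 with gene lengths, 0 in the 3 limma fits, and 1 to 4 with a library left out. The other lysosomal genes called (21) were 6 with effective lengths, 6 in each limma fit without the block, 0 with it, and 9 to 18 with a library left out. The cause of these shifts was not tested.

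The median log2 fold change of the lysosomal genes (-0.011) was -0.00015 with library size alone, -0.027 with effective lengths, -0.022 with gene lengths, -0.035, -0.036 and -0.035 in the limma fits on log2(TPM + 1), on log2(TPM + 0.1) and with the block, and -0.016 to 0.0031 with a library left out. STBD1 stayed lower at -0.54 (adjusted p = 0.0646), -0.65 (adjusted p = 0.0672) and, with the block, -0.54 (adjusted p = 0.137) in limma. The sign turned for ATP6V0C with gene lengths (-0.010), for CD63 with effective lengths (0.0095) and without shControl 1 (0.0053, in a range from -0.069 over single libraries left out), and for DMXL2 with effective lengths (-0.034) and in limma (-0.026 in each of the 3 fits).

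Whether the replicate numbers pair the libraries is not stated. Deviations of same-numbered libraries correlated at -0.0084 to 0.071 (mean 0.043), and those of the other pairs at -0.074 to 0.010 (mean -0.022). These few weak correlations cannot decide it. With the replicate block edgeR called 2579 genes, 7 lysosomal genes, 2 pump genes, 5 pump partners and 21 other lysosomal genes, and STBD1 was at -0.64.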
